A study of Mus musculus with 6 samples.

Results

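The semaphorins, their plexin receptors and the neuropilins were examined in Pax7-expressing limb cells of mouse fetuses and embryos. The 31 genes were taken by their platform annotation symbol. Of the 31, 20 encode semaphorin ligands and 11 encode receptors (9 plexins and 2 neuropilins), among 18182 genes measured in all. Each gene was represented by 1 of its probe sets, the one with the highest mean over all 6 arrays. All 31 genes were measured. The cells carried the transgene Tg:Pax7-nGFP, in which nuclear green fluorescent protein is driven by Pax7, a transcription factor of skeletal muscle stem and progenitor cells. GFP-positive cells were sorted from trypsin-digested limbs at E17.5 (3 arrays) and at E12.5 (3 arrays), where E is the embryonic day. All animals were on a mixed C57BL/6:DBA2 background. Every group therefore carried the transgene and none was treated. The labels name 3 biological replicates per age, A, B and C, and do not say how many embryos went into each.

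Semaphorins are guidance proteins that share an extracellular sema domain. Class 3 members are secreted, while those of classes 4 to 7 are held at the cell surface. Plexins receive most of these signals and act through an intracellular domain that switches off small GTPases of the Ras and Rap type. Most class 3 semaphorins do not bind plexins alone but need a neuropilin, which holds the ligand in a complex with an A-type plexin, and neuropilins are also receptors for vascular endothelial growth factors (VEGFs). In the limb these genes are best known for steering motor axons and vessels. In muscle, Sema3a is known as a protein released by satellite cells, the adult muscle stem cells, and Sema4c as a membrane protein of myoblasts.

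Values are log2 signals after GCRMA, given per array or as mean ± SD (n = 3 arrays per age). Differences are log2 values, E17.5 minus E12.5, with a standard error (SE), tested with limma and adjusted by Benjamini-Hochberg over all 18182 genes. A gene is said to have risen or fallen where the adjusted p was under 0.05. Signals under 4 lie in the dense low range of GCRMA values, where 42.8% of genes had their mean. The array medians lay between 3.38 and 3.47, and precision is limited by having 3 arrays per age. The sorted cells carried their defining transcripts at both ages, with Pax7 at 12.37 ± 0.15 at E17.5 and 11.46 ± 0.28 at E12.5, and Myf5 at 13.07 ± 0.24 at E17.5 and 12.17 ± 0.57 at E12.5. The progenitor markers were not level between the ages, as 2 of 8 rose and 1 fell. Pax7 (difference 0.91, adjusted p = 0.0105) and Myog (difference 1.86, adjusted p = 0.0128) rose, and Pax3 fell (difference -2.56, adjusted p = 0.0142). The E17.5 arrays A and B were nearly alike: across 8758 genes their difference had an SD of 0.152, while each of the 5 remaining pairs within an age had one of 0.412 to 0.551. Because these 2 arrays may not be independent, calls are also given from a fit on the mean of both, counted once, here called the averaged fit. In sorted cells measured in bulk, fewer cells of a type and less RNA per cell cannot be told apart.

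Both directions were equally frequent among the 31 genes. At E17.5, 7 genes rose (Sema3a, Sema3b, Sema3c, Sema3g, Sema5b, Plxna2 and Plxnc1) and 7 fell (Sema3d, Sema4d, Sema4g, Plxna1, Plxna3, Plxnb1 and Nrp2). These 14 genes are 45.2% of the family, while 16.9% of all 18182 genes were called, 8.21% as higher and 8.73% as lower. The share of called genes depends on brightness. It was 27.3% among genes with a mean of at least 4, a range that held 25 of the 31 family genes. All 14 called genes had the 3 arrays of one age entirely above the 3 of the other, as did 5 uncalled ones, 19 of 31 in all, against 31.4% of all genes. In the averaged fit 4 family genes rose and 3 fell, against 5.62% and 4.54% of all genes. Without E17.5 replicate A 3 rose and 3 fell, and without E17.5 replicate B 4 rose and 3 fell. The count of falls was 4 without E12.5 replicate B, without E12.5 replicate C or without E17.5 replicate C. In 6 genes (Sema3c, Sema3g, Sema4g, Plxnb1, Plxnc1 and Nrp2) the call held in each of the 6 fits that left out 1 array, and also in each of the 12 other alternative fits that tested them. The same 6 genes were those with an adjusted p under 0.01.

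**Figure D1:**
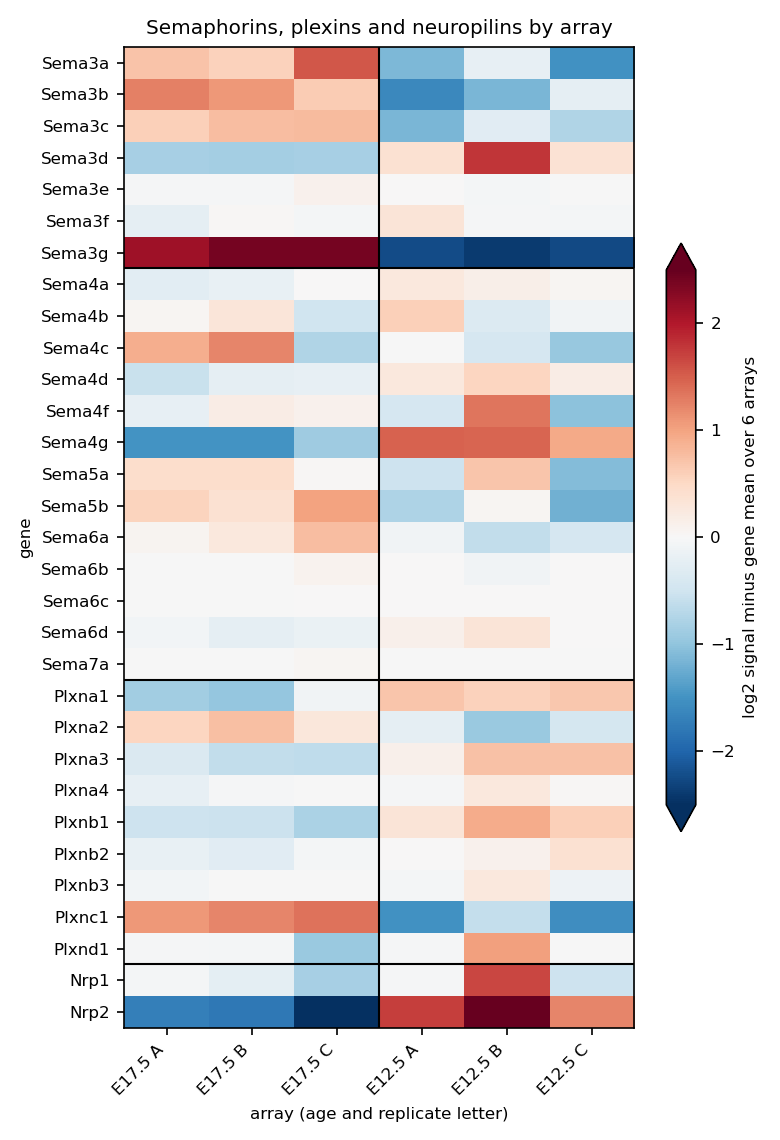
Log2 signal of each of the 31 genes (rows) on each of the 6 arrays (columns, E17.5 left and E12.5 right) minus the gene's mean over the 6 arrays. Horizontal lines separate secreted semaphorins, membrane-bound semaphorins, plexins and neuropilins. Colours saturate at 2.5. Sema3g, Plxnc1, Sema4g and Nrp2 show the strongest contrast between ages, and Nrp1 and Sema4f stand out on the array of E12.5 replicate B.

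The largest rise and the largest fall of the family were those of Sema3g, a secreted semaphorin known from vessels that binds Nrp2, and of Nrp2 itself. Their promoter windows are shown because the difference between ages was largest at these genes. Each runs from 250 bases before to 50 bases after the annotated start and comes from RefSeq (GRCm38.p6). Both genes lie on the plus strand, the Sema3g window at chr14:31217623-31217922 and the Nrp2 window at chr1:62703067-62703366. Capitals mark the E box CAGCTG, of the kind bound by myogenic bHLH factors, and the GC box GGGCGG, searched on both strands.
Sema3g: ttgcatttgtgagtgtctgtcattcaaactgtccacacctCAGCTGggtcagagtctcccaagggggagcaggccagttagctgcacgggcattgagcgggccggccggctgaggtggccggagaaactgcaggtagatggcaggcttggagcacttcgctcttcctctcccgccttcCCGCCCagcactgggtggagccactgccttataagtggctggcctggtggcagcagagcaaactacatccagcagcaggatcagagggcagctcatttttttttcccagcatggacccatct
Nrp2: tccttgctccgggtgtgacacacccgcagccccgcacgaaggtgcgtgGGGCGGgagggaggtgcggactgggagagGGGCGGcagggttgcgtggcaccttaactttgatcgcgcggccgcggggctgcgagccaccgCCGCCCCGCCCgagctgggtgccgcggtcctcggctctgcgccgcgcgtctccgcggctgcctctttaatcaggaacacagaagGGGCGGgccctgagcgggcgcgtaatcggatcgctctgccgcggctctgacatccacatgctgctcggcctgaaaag
The Sema3g window held 1 CAGCTG and 1 GGGCGG match. The Nrp2 window held no CAGCTG and 5 GGGCGG matches, 2 of which overlap each other. Over the 32851 promoter windows of RefSeq genes, 16.3% held CAGCTG and 35.7% held GGGCGG. Windows were found for 12 of the 14 called genes. CAGCTG was present in 3 of the 12 (Sema3g, Sema4d and Sema4g) and GGGCGG in 9. Sema3g and Sema4g, which changed in opposite directions, both held CAGCTG. A match is a description of letters and not evidence of binding.

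Most of the rises were among the secreted class 3 semaphorins. Of 7 genes 4 rose, 1 fell and 2 were not called, with a median difference of 1.45 (all genes 0.00). Sema3g stood at 9.30, 9.58 and 9.58 in E17.5 replicates A, B and C, against 4.94, 4.79 and 4.92 in E12.5 replicates A, B and C. The ages were far apart and the arrays of each age nearly level, giving a difference of 4.60 (SE 0.18, adjusted p = 5.18e-05), or 24.3-fold. Leaving out any 1 array kept it between 4.56 and 4.70. Endothelial cells are a known source of Sema3g, and 2 of the 10 endothelial markers rose with it and none fell. Of these, the receptor gene Tek stood at 10.18 ± 0.13 at E17.5 and 5.29 ± 0.55 at E12.5, and Ramp2 was the other (adjusted p = 0.0497), which was not called in the averaged fit (adjusted p = 0.0713) and was called in 1 of the 6 fits that left out an array. Of the 8 endothelial markers not called, 5 had a mean under 4 at both ages (Pecam1, Cdh5, Flt1, Tie1 and Emcn). Pecam1 was at 2.32 ± 0.01 at E17.5 and 2.33 ± 0.12 at E12.5. Cdh5 was at 2.93 ± 0.43 at E17.5 and 3.27 ± 0.64 at E12.5. Flt1 was at 2.39 ± 0.06 at E17.5 and 2.37 ± 0.02 at E12.5. Egfl7 lay above the background range at both ages (7.43 ± 0.25 at E17.5 and 7.10 ± 0.35 at E12.5). Esam was at 4.25 ± 1.25 at E17.5 and 5.19 ± 1.05 at E12.5, and Cldn5 at 3.51 ± 0.37 at E17.5 and 4.35 ± 0.61 at E12.5. The mean over the 10 markers was 4.45 to 4.66 on the E17.5 arrays and 3.89 to 4.72 on the E12.5 arrays. Of 7 smooth muscle and pericyte markers 3 rose (Tagln by 5.22, Rgs5 by 3.89 and Cspg4 by 1.90) and 2 fell (Pdgfrb by 3.84 and Acta2 by 0.49), with a list mean of 7.23 to 7.55 on the E17.5 arrays and 6.36 to 6.60 on the E12.5 arrays. Of 9 macrophage and leukocyte markers 2 rose (Cd68 by 2.99 and Lyz2 by 1.06) and none fell, with a list mean of 3.82 to 3.93 on the E17.5 arrays and 3.28 to 3.88 on the E12.5 arrays. The part of these transcripts in the rise of Sema3g was not tested.

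Sema3c, a secreted cue needed for septation of the cardiac outflow tract, stood at 9.01, 9.20 and 9.22 in E17.5 replicates A, B and C and at 7.28, 8.14 and 7.67 in E12.5 replicates A, B and C. Every E17.5 array was above every E12.5 array (difference 1.45, SE 0.23, adjusted p = 0.00687). Sema3a, the prototype repellent of motor and sensory axons acting through Nrp1, stood at 8.61, 8.48 and 9.46 at E17.5 and 6.77, 7.69 and 6.38 at E12.5. It rose by 1.90 (SE 0.41, adjusted p = 0.0211), a 3.74-fold change. The groups did not overlap, but their spread was wide. The adjusted p was 0.0599 with values under 4 raised to 4, and the call was lost without E12.5 replicate A, without E12.5 replicate C, without E17.5 replicate A or without E17.5 replicate C (adjusted p up to 0.0601). In the averaged fit it held (adjusted p = 0.0459).

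Sema3b, a semaphorin studied as a tumour suppressor in human cancers, stood at 7.34, 7.17 and 6.72 at E17.5 and 4.48, 4.95 and 5.86 at E12.5 (difference 1.98, SE 0.40, adjusted p = 0.017). The ages did not overlap, although the highest E12.5 array came within 1 log2 unit of the lowest E17.5 array. The averaged fit did not call it (adjusted p = 0.0661), nor did the fits without E12.5 replicate B, E17.5 replicate A or E17.5 replicate B (adjusted p up to 0.0687). Sema3d, a guidance cue of vessels and pulmonary veins, was the 1 class 3 gene that fell, standing at 4.09, 4.06 and 4.09 at E17.5 and 5.30, 6.70 and 5.27 at E12.5. Its E17.5 arrays lay at the upper edge of the background range and E12.5 replicate B was well above the other arrays of its age (difference -1.68, SE 0.41, adjusted p = 0.0347). The averaged fit gave adjusted p = 0.104, and the call was also lost without any 1 of the E17.5 arrays (adjusted p up to 0.112).

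The remaining class 3 genes were not called. Sema3f, the Nrp2 ligand that repels motor axons, was at 7.43 ± 0.13 at E17.5 and 7.58 ± 0.21 at E12.5 (difference -0.16, SE 0.18, adjusted p = 0.736). Its other probe sets, of lower signal, had differences of -0.86 and -0.82. Neither was called (adjusted p over all probe sets 0.332 and 0.477), and in both E12.5 replicate B was the highest array. Sema3e, which is unusual among class 3 members in binding Plxnd1 without a neuropilin, was at 2.68 ± 0.08 at E17.5 and 2.66 ± 0.03 at E12.5, in the background range at both ages.

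**Figure D2:**
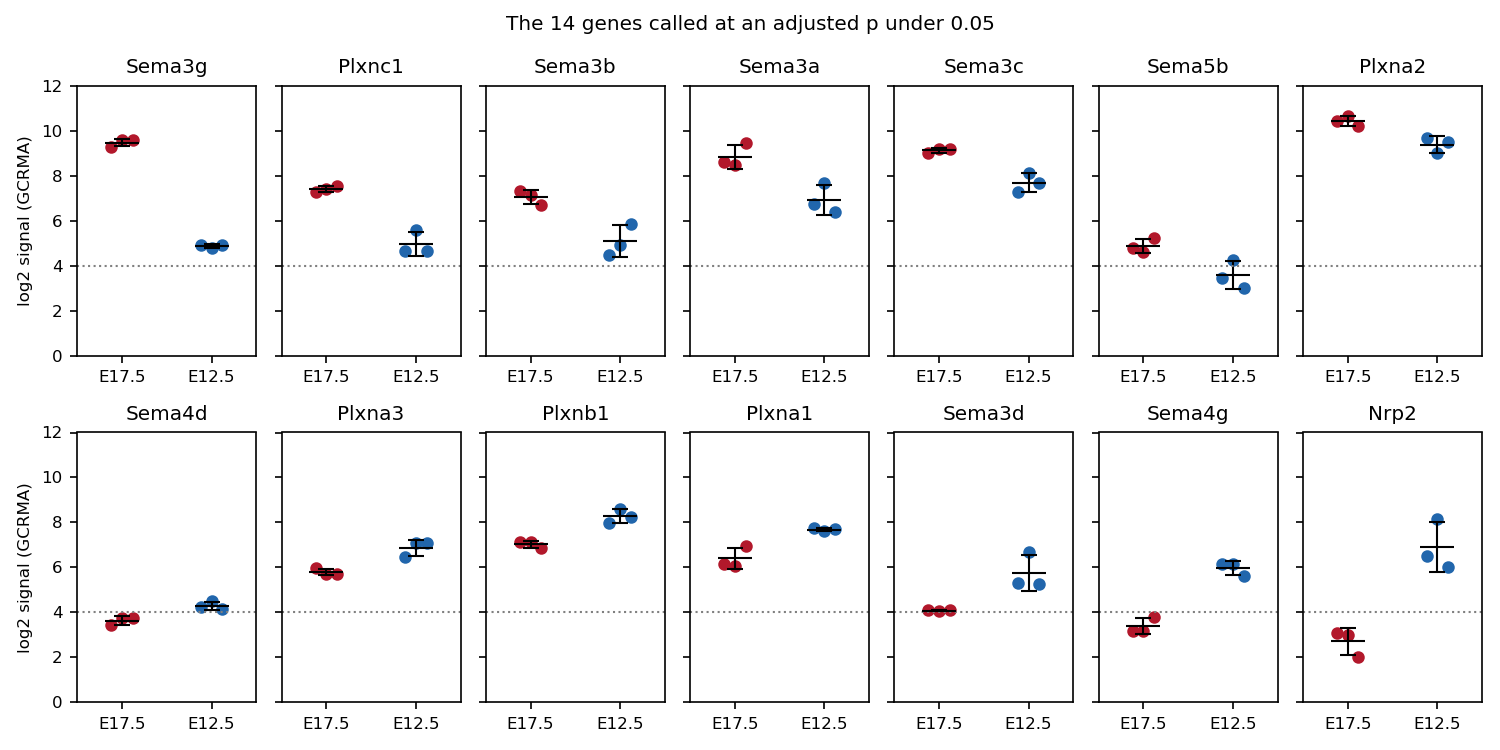
Log2 signals of the 14 called genes, ordered from the largest rise to the largest fall. Points are arrays A, B and C of E17.5 (red, left) and E12.5 (blue, right), black bars the mean ± SD (n = 3), and the dotted line a signal of 4. Sema3g lies between 9.30 and 9.58 at E17.5 and between 4.79 and 4.94 at E12.5, and Nrp2 between 2.02 and 3.10 at E17.5 and between 6.02 and 8.15 at E12.5.

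The membrane-bound semaphorins mostly did not pass the test. Of 13 genes 1 rose, 2 fell and 10 were not called, with a median difference of 0.02. The called share of 23.1% lay between that of all genes (16.9%) and that of genes with a mean of at least 4 (27.3%). Sema4g, a ligand of Plxnb2, changed most among them, at 3.18, 3.18 and 3.80 in E17.5 replicates A, B and C and 6.16, 6.14 and 5.63 in E12.5 replicates A, B and C. All E17.5 arrays were in the background range and all E12.5 arrays above it (difference -2.59, SE 0.27, adjusted p = 0.00125, and -1.98 with values under 4 raised to 4). Sema4d, the class 4 ligand of Plxnb1 that is shed from the surface of lymphocytes and other cells, stood at 3.42, 3.74 and 3.76 at E17.5 and 4.23, 4.51 and 4.16 at E12.5. All of these values are close to 4, and the call (difference -0.66, SE 0.17, adjusted p = 0.0405) did not hold in the averaged fit (adjusted p = 0.129) or without any 1 array (adjusted p up to 0.176).

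Sema5b, a class 5 semaphorin that confines retinal neurites, stood at 4.79, 4.63 and 5.24 at E17.5 and 3.47, 4.28 and 3.03 at E12.5 (difference 1.29, SE 0.35, adjusted p = 0.048). Its groups did not overlap, but both lay near the background range, and the difference was 0.79 with values under 4 raised to 4. The averaged fit did not call it (adjusted p = 0.0957), nor did any fit that left out 1 array other than E12.5 replicate B (adjusted p up to 0.135).

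Several uncalled members carried signal well above the background range at both ages. Sema4c, the Plxnb2 ligand of myoblasts, stood at 9.93, 10.23 and 8.26 in E17.5 replicates A, B and C and 9.00, 8.59 and 8.07 in E12.5 replicates A, B and C. Replicate C at E17.5 lay 1.82 below the mean of A and B, so the ages overlapped (difference 0.92, SE 0.53, adjusted p = 0.344). Without E17.5 replicate C it was called. Sema6a, a transmembrane ligand of Plxna2 and Plxna4, stood at 8.37 ± 0.37 at E17.5 and 7.63 ± 0.27 at E12.5. Its ages did not overlap and its difference of 0.74 (SE 0.24, adjusted p = 0.087) missed the threshold. Sema5a, a bifunctional axon guidance cue, was at 8.54 ± 0.24 at E17.5 and 7.94 ± 0.90 at E12.5 (difference 0.60, SE 0.43, adjusted p = 0.488; called without E12.5 replicate B). Sema6b (0.05), Sema6d (-0.30), Sema4a (-0.30), Sema4b (-0.11) and Sema4f (0.07) had differences of at most 0.30 in size, with SEs of 0.20 to 0.58. Sema6c (2.12 ± 0.01 at E17.5, 2.13 at E12.5) and Sema7a (2.82 ± 0.04 at E17.5, 2.80 at E12.5), a lipid-anchored ligand of Plxnc1 and of beta 1 integrin, were in the background range on every array.

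**Figure D3:**
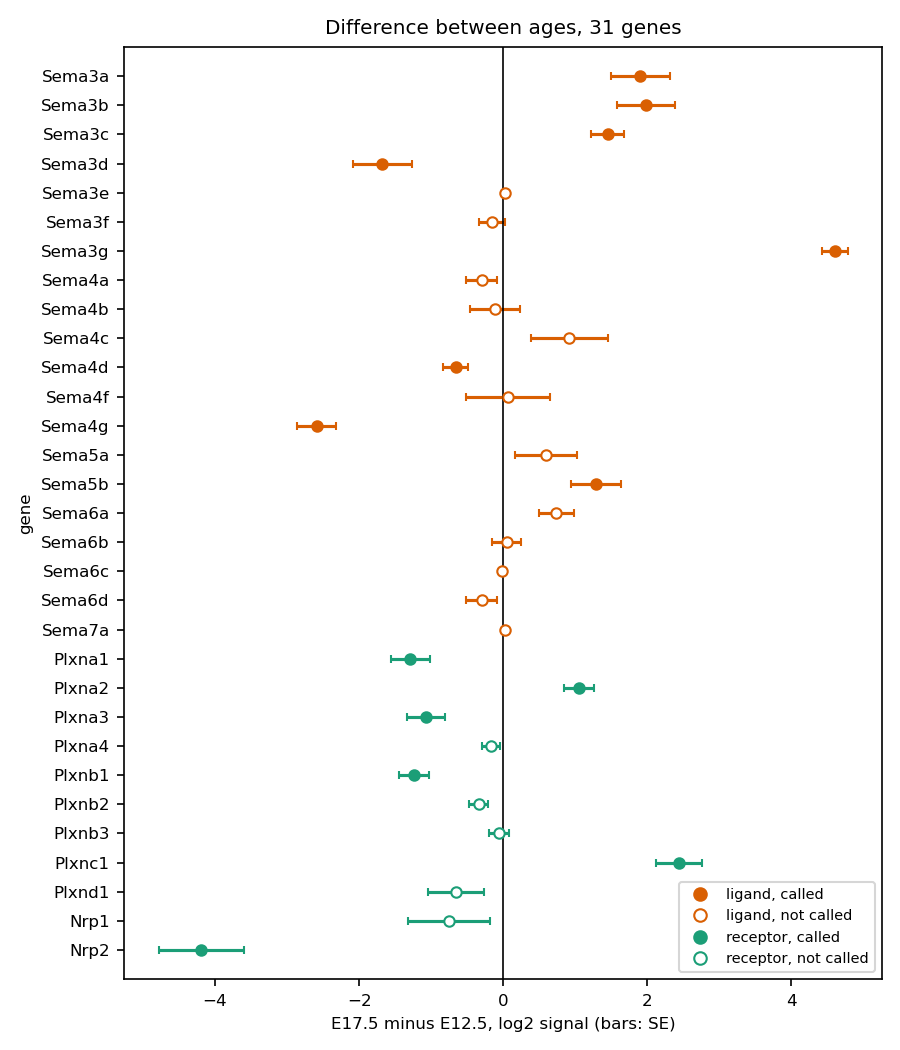
Difference of each of the 31 genes (E17.5 minus E12.5, log2 signal, horizontal axis; bars are ± SE of limma). Ligands are orange and receptors green. Filled points have an adjusted p under 0.05. The ligands reach from -2.59 (Sema4g) to 4.60 (Sema3g), and 9 of the 11 receptors lie below 0.

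The plexins were divided. Of 9 genes 2 rose, 3 fell and 4 were not called, with a median difference of -0.34. Plxnc1, the receptor of Sema7a, stood at 7.29, 7.41 and 7.56 in E17.5 replicates A, B and C and 4.68, 5.60 and 4.65 in E12.5 replicates A, B and C. The gap between the ages exceeded the spread within them (difference 2.44, SE 0.32, adjusted p = 0.00303, 5.44-fold). It was 2.28 to 2.76 when any 1 array was left out. Plxna2, which transduces class 3 signals with neuropilins and also binds Sema6a, stood at 10.46, 10.67 and 10.20 at E17.5 and 9.70, 9.00 and 9.49 at E12.5 (difference 1.05, SE 0.21, adjusted p = 0.0173). The averaged fit did not call it (adjusted p = 0.0623), nor did the fits without E17.5 replicate A or E17.5 replicate B (adjusted p up to 0.0691).

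Plxna1 and Plxna3, which like Plxna2 form complexes with neuropilins, fell while Plxna2 rose. Plxna1 stood at 6.17, 6.08 and 6.95 at E17.5 and 7.74, 7.61 and 7.71 at E12.5 (difference -1.29, SE 0.27, adjusted p = 0.0206; averaged fit 0.0795). Plxna3 stood at 5.96, 5.72 and 5.70 at E17.5 and 6.46, 7.07 and 7.07 at E12.5 (difference -1.07, SE 0.26, adjusted p = 0.0324; averaged fit 0.102). The ages did not overlap in either gene. The call of Plxna1 was lost without E12.5 replicate B, E12.5 replicate C, E17.5 replicate A or E17.5 replicate B (adjusted p up to 0.0817), and that of Plxna3 without any 1 array other than E12.5 replicate A (adjusted p up to 0.129). Plxnb1, the receptor of Sema4d, stood at 7.13, 7.12 and 6.86 at E17.5 and 7.97, 8.59 and 8.26 at E12.5. It fell by 1.24 (SE 0.21, adjusted p = 0.00877; averaged fit 0.0339) with no overlap between the ages.

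Plxnb2, a receptor of Sema4c and Sema4g, was at 10.06 ± 0.12 at E17.5 and 10.40 ± 0.19 at E12.5. Its ages did not overlap, and its difference of -0.34 (SE 0.13, adjusted p = 0.142) was not called. Plxnd1, the vascular receptor of Sema3e, was at 4.41 ± 0.51 at E17.5 and 5.07 ± 0.60 at E12.5 (difference -0.66, SE 0.39, adjusted p = 0.366). Plxna4 (3.65 ± 0.10 at E17.5 and 3.82 ± 0.16 at E12.5) and Plxnb3 (3.83 ± 0.03 at E17.5 and 3.89 ± 0.20 at E12.5) were in the background range at both ages.

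The 2 neuropilins differed in outcome. Nrp2 stood at 3.10, 3.01 and 2.02 in E17.5 replicates A, B and C and 6.53, 8.15 and 6.02 in E12.5 replicates A, B and C. Every E17.5 array was in the background range and every E12.5 array well above it (difference -4.19, SE 0.59, adjusted p = 0.00438). With values under 4 raised to 4 the difference was -2.90 (adjusted p = 0.0379). Nrp1, the neuropilin that carries Sema3a signals, stood at 6.71, 6.52 and 5.92 at E17.5 and 6.73, 8.43 and 6.24 at E12.5. The ages overlapped, and the difference of -0.75 (SE 0.57, adjusted p = 0.517) was -0.10 without E12.5 replicate B. The contrast between the 2 genes was not tested.

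Marker genes of other cell types that the sort could hold moved in both directions. Of 10 markers of fibroblasts and limb mesenchyme 4 fell (Prrx1, Prrx2, Pdgfra and Twist2) and 2 rose (Dpt and Col1a1), with a median difference of -0.38. Pdgfra was at 6.33 ± 1.44 at E17.5 and 10.01 ± 1.30 at E12.5, while Dpt was at 11.14 ± 0.09 at E17.5 and 2.10 ± 0.44 at E12.5, in the background range. In the averaged fit 2 of the 10 fell (Prrx2 and Pdgfra) and 1 rose (Dpt). The mean over the list was 8.07 to 9.04 on the E17.5 arrays and 7.63 to 9.54 on the E12.5 arrays, and none of the 10 was under 4 on every array. Of 6 Schwann cell and neural crest markers 4 were under 4 on every array, among them Sox10 (2.32 ± 0.03 at E17.5, 2.86 ± 0.85 at E12.5), and Erbb3 fell by 2.80 (adjusted p = 0.000248), with 9.87 ± 0.20 at E17.5 and 12.68 ± 0.33 at E12.5. The mean over these markers was 3.60 to 3.61 on the E17.5 arrays and 4.09 to 4.52 on the E12.5 arrays. Of 9 neuronal markers 5 were under 4 on every array and 2 fell, Isl1 (difference -2.58, adjusted p = 0.0405) and Elavl4 (difference -1.65, adjusted p = 0.0276). Neither was called in the averaged fit. The neuronal mean was 2.62 to 2.73 on the E17.5 arrays and 3.11 to 3.73 on the E12.5 arrays. Among 6 cartilage markers 4 were lower at E17.5 and 2 higher, with a median difference of -0.83. Only Col9a1 was called (difference -4.02, adjusted p = 0.0245, averaged fit 0.0299), and in 3 of the 6 fits that left out an array. The cartilage mean was 4.76 to 6.55 on the E17.5 arrays and 6.46 to 7.76 on the E12.5 arrays. Of 6 red cell markers 3 fell and none rose. Those that fell were the globin genes Hbb-y (difference -10.41), Hbb-bh1 (-4.11) and Hba-x (-4.33), of which the averaged fit called only Hbb-y. Alas2 (0.69), Slc4a1 (-0.87) and Hba-a1 (2.39 at both ages) were not called. The red cell mean was 3.19 to 3.53 on the E17.5 arrays and 5.37 to 7.48 on the E12.5 arrays. The part of these transcripts in the fall of Nrp2 was not tested.

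Single arrays stood apart in some of the marker lists and in several family genes. On E12.5 replicate B, set against the mean of E12.5 replicates A and C, the median marker was higher by 1.55 in the mesenchymal list, 1.26 in the cartilage list, 1.14 in the red cell list and 0.91 in the endothelial list. The median was 0.32 in the macrophage list, -0.01 in the neuronal list, -0.02 in the Schwann cell list and -0.02 in the smooth muscle list. In these lists 2 of 9, 3 of 9, 2 of 6 and 1 of 7 markers, in that order, were higher by at least 1. The muscle progenitor list had a median of -0.29 and all genes one of -0.04. The same array was higher by at least 1 in 8 of the 31 family genes, against 3.02% of all genes. These were Sema4f (2.05), Nrp1 (1.94), Nrp2 (1.88), Sema5a (1.48), Sema3d (1.42), Sema3a (1.12), Plxnd1 (1.04) and Sema5b (1.03). Without that array the difference of Nrp2 was -3.56 (adjusted p = 0.00344). E17.5 replicate C, set against the mean of E17.5 replicates A and B, had a median of -1.80 in the cartilage list and -0.62 in the mesenchymal list. In the other marker lists its median was -0.11 to 0.06, and over all genes 0.05. Of the family genes Sema4c (-1.82) and Nrp2 (-1.03) differed by at least 1 on it, as did 792 of all 18182 genes. The E17.5 signals of Nrp2 (3.10, 3.01 and 2.02) all lay in the background range.

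Ligands and receptors are given side by side, with no test of one against the other, since the genes were chosen with their values known. Of 20 ligands 5 rose and 3 fell (median difference 0.04), and of 11 receptors 2 rose and 4 fell (median -0.66). Over all genes 8.21% rose and 8.73% fell (median 0.00), and 27.3% of those with a mean of at least 4 were called. A mean under 4 was found for 4 ligands and 2 receptors. In the averaged fit 3 ligands rose and 1 fell, and 1 receptor rose and 2 fell, against 5.62% and 4.54% of all genes. Without E17.5 replicate A 2 ligands rose and 1 fell, while 1 receptor rose and 2 fell. Without E17.5 replicate B 3 ligands rose and 1 fell, and 1 receptor rose and 2 fell. Without E12.5 replicate A or C 3 ligands rose, without E17.5 replicate C 1 ligand fell, and without E12.5 replicate B or C 2 receptors fell. The receptor median was -0.32 without E12.5 replicate B and -0.40 without E17.5 replicate C.

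Known partners differed in how they moved. Sema3g rose while its receptor Nrp2 fell, and Sema3f, another Nrp2 ligand, was not called. Plxnc1 rose, and its ligand Sema7a stayed in the background range, as did Sema3e beside its uncalled receptor Plxnd1. Plxnb1 fell, and so did its ligand Sema4d. The signals of Sema4d were close to 4, however, and its call was lost in the averaged fit and without any 1 array. Sema4g fell beside Plxnb2, which was not called. Sema3a rose beside Nrp1, which was not called.

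Other probe sets of the same genes gave a second measurement. Of the 31 genes 25 had several probe sets, 47 in addition to those chosen, and 13 of the 47 had a mean of at least 4. In the fit over all 34909 probe sets with 1 gene symbol, 11.3% of probe sets were called. The chosen probe sets of 11 of the 14 called genes were called in it too, while those of Sema3d (adjusted p = 0.053), Sema4d (adjusted p = 0.065) and Sema5b (adjusted p = 0.0735) were not. Of 23 other probe sets of the 14 called genes 4 were called, all 4 in the direction of the chosen probe set. They were 2 of Nrp2 (-2.32, adjusted p = 0.0168, and -3.16, adjusted p = 0.00839), 1 of Plxna2 (1.05, adjusted p = 0.0283) and 1 of Sema3a (1.02, adjusted p = 0.0371). The Nrp2 probe set at -3.16 (mean 3.60) and that of Sema3a (mean 3.38) had a mean under 4. Of the 13 other probe sets with a mean of at least 4, 11 had the sign of the chosen one and 2 were called. Second probe sets of Plxnc1 (1.68, adjusted p = 0.0513) and Plxnb1 (-1.16, adjusted p = 0.098) had the sign of the chosen ones. The remaining Plxnc1 probe sets had means of 2.08 to 2.97 and differences of 0.01 to 0.03. Sema3g, Sema4g, Sema4c, Sema6b, Plxnb2 and Plxnd1 had a single probe set. Both other probe sets of Sema6a were lower at E17.5 (-0.56 and -0.45, uncalled), opposite in sign to the chosen one, and so was the second probe set of Sema5b (-0.24, uncalled).

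**Figure D4:**
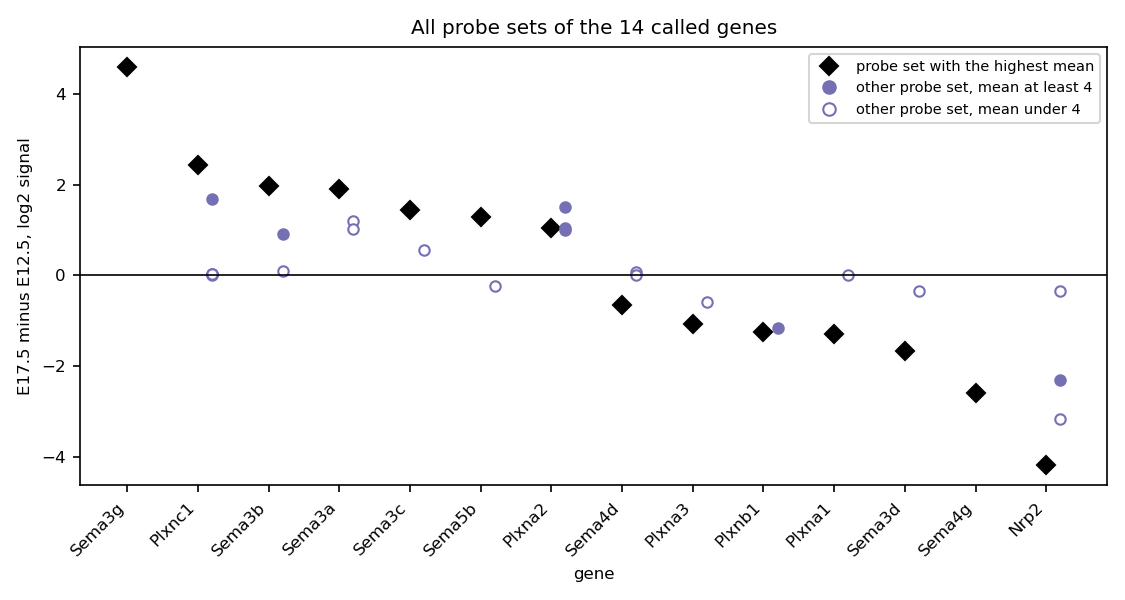
Difference (E17.5 minus E12.5, log2 signal) for every probe set of the 14 called genes. Diamonds are the probe sets chosen by the highest mean, filled circles other probe sets with a mean of at least 4 and open circles those with a mean under 4. The other probe sets of Plxna2 (0.99 to 1.51) lie around the chosen value of 1.05.

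**Figure D5:**
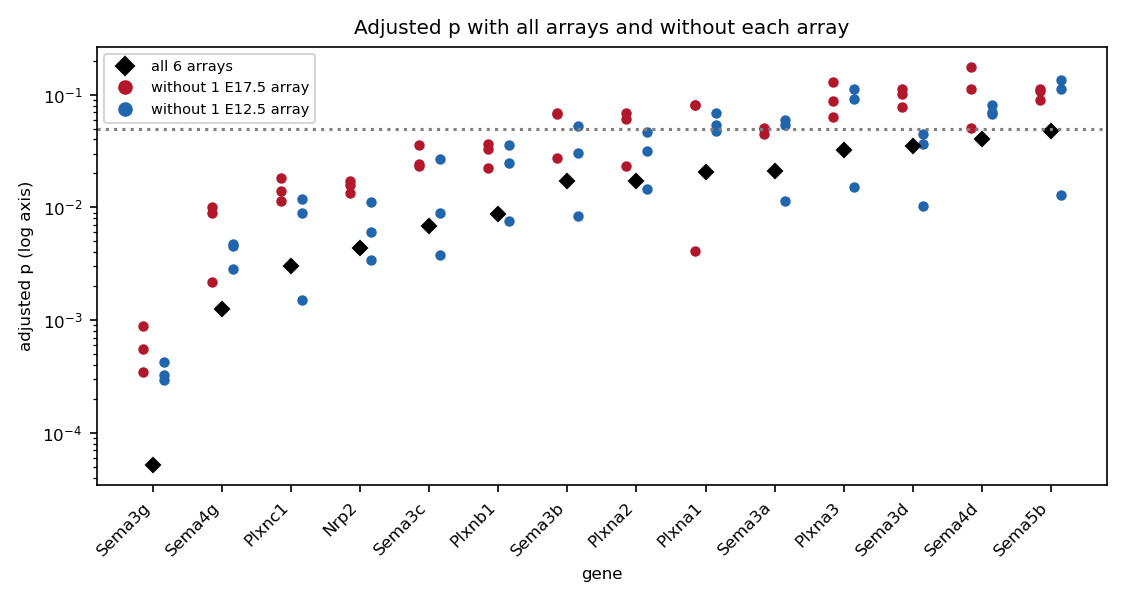
Adjusted p of the 14 called genes, ordered by it, on a log axis. Diamonds use all 6 arrays, red points leave out 1 E17.5 array, blue points 1 E12.5 array, and the dotted line marks 0.05. For Sema3g, Sema4g, Plxnc1, Nrp2, Sema3c and Plxnb1 every point lies under the line. For the other 8 genes at least 1 point lies above it.

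Genes that act with semaphorins and plexins were described from 4 further lists. Of 54 measured genes 7 rose and 7 fell (25.9%, against 16.9% of all genes). Only 10 of the 54 had a mean under 4, and the called share was 27.3% among all genes whose mean reached 4. In the averaged fit 5 rose and 1 fell, against 5.62% and 4.54% of all genes. Without E17.5 replicate A or without E17.5 replicate B 1 gene fell, and 3 fell without E12.5 replicate C. Among 11 co-receptors and other receptors, Itga1, the collagen-binding integrin subunit that also serves Sema7a, rose by 3.70 (SE 0.21, adjusted p = 0.00014). It stood at 6.58 ± 0.26 at E17.5 and 2.88 ± 0.06 at E12.5, in the background range, and the difference was 2.58 with values under 4 raised to 4 (adjusted p = 0.00117). No other of the 11 was called. Met, the hepatocyte growth factor receptor of migrating muscle progenitors that can associate with Plxnb1, was at 12.09 ± 0.02 at E17.5 and 12.61 ± 0.52 at E12.5 (difference -0.53, SE 0.24, adjusted p = 0.223). Without E12.5 replicate B, the lowest array of its age at 12.03, Met was called (difference -0.82, adjusted p = 0.0082).

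Of 5 VEGF family ligands of neuropilins 2 fell and none rose. Vegfc, a lymphatic growth factor that binds Nrp2, stood at 6.03 ± 0.11 at E17.5 and 8.42 ± 0.21 at E12.5 (difference -2.38, SE 0.19, adjusted p = 0.000427). Pgf, the placental growth factor gene, fell by 1.04 (adjusted p = 0.028; averaged fit 0.0964). Vegfa was at 8.18 ± 0.35 at E17.5 and 8.22 ± 0.13 at E12.5 (adjusted p = 0.949).

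Among 33 measured transducers of plexin signals 5 rose and 4 fell. Rras, a GTPase that plexins inactivate, rose by 2.25 (SE 0.20, adjusted p = 0.000612), to 9.46 ± 0.05 at E17.5 against 7.20 ± 0.35 at E12.5. Fyn, a kinase recruited to A-type plexins, rose by 1.16 (adjusted p = 0.00375) and Rap1a, another GTPase substrate of plexins, rose by 0.54 (adjusted p = 0.00577). Mical2, of the family of actin-oxidising enzymes downstream of plexins, rose to 4.73 ± 0.48 at E17.5, against 3.72 ± 0.14 at E12.5 (adjusted p = 0.0439), and Rhoa rose by 0.50 (adjusted p = 0.0131). Mical3, a relative of Mical2, fell by 1.22 (adjusted p = 0.0143), and the collapsin response mediators Crmp1 and Dpysl4 fell by 2.34 and 1.41 (adjusted p = 0.0259 and 0.0109). Crmp1 was in the background range at E17.5 (2.32 ± 0.11, against 4.66 ± 1.16 at E12.5), and with values under 4 raised to 4 its difference was -0.73 (adjusted p = 0.626). With the same floor Mical2 had a difference of 0.73 (adjusted p = 0.15). Limk1, the kinase that inactivates cofilin, fell by 0.97 (adjusted p = 0.0477). The averaged fit called 3 of these transducers as higher and none as lower. Of 5 proteases that cut semaphorins, neuropilins or their binding partners, Adamts1 rose by 2.59 (adjusted p = 0.000127) and Mmp14 fell by 0.51 (adjusted p = 0.0455; averaged fit 0.119), while Furin, which activates class 3 semaphorins by cleavage, had a difference of 0.82 (SE 0.23, adjusted p = 0.0551). Itga1, Vegfc, Rras, Fyn, Rap1a and Adamts1 were called in each of the 6 fits that left out 1 array. Pgf, Crmp1, Dpysl4, Mical2, Mical3, Rhoa, Limk1 and Mmp14 all lost their call without E17.5 replicate B and in the averaged fit.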

How the data were processed

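Sorted-cell RNA was hybridised to 6 Affymetrix arrays after column purification and repeated linear amplification from the 3' end, per the labels' protocols. The authors deposited log2 values for each probe set. GCRMA is the method that the submitters' processing notes name, without a version. The values ran from 0.96 to 15.94.

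Of 44994 probe sets 34909 had 1 gene symbol in the platform annotation (34705 updated by entrez ID to RefSeq GRCm38.p6 names), 931 had several and 9154 had none. The test was limma 3.58.1 in R 4.3.3 (lmFit, eBayes with an intensity trend, no filter), with Benjamini-Hochberg adjustment over 18182 genes. It was tested on simulated data with independent noise on every array, which does not cover the likeness of E17.5 A and B. Family members, gene lists and tests were chosen with earlier results of these data known. All 31 members were named. From each further list, up to 4 called genes per direction were named, by size, or the 2 brightest where none was called. Met, Vegfa, Furin, Rhoa and the marker genes printed were named after their values were seen. Alternatives tried were array weights, different variance priors and probe set choices, filters and a floor on low signal, other normalizations, a replicate block, a threshold of 0.01, leaving out each array, and averaging E17.5 A and B. The labels call the replicates biological without naming litters or embryos, so p-values measure the spread between these samples. Figures were drawn with matplotlib 3.10.9.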

Additional observations from a re-analysis of the deposited data

How the results depend on the processing

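Of the 14 called family genes, 6 (Sema3c, Sema3g, Sema4g, Plxnb1, Plxnc1 and Nrp2) kept their call in all 18 alternative fits that tested them, and no called member changed sign. Family genes that rose (7) numbered 3 with the replicate block, 4 in the averaged fit and 3 at a threshold of 0.01, and 3 to 7 without 1 array. Family genes that fell (7) numbered 4 with probe sets averaged per gene, 3 when restricted to genes of mean 6 or more, 3 with the floor at 4, 3 with the replicate block, 3 in the averaged fit and 3 at 0.01, and 3 to 6 without 1 array. All genes that rose (1493) numbered 3205 with array weights (highest for E17.5 A, E12.5 C and E17.5 B) and 841 at 0.01, and 969 to 1553 without 1 array. All genes that fell (1587) numbered 5219 with array weights, 1014 with the replicate block, 825 in the averaged fit and 701 at 0.01, and 770 to 1776 without 1 array. Pathway genes that rose (7) numbered 15 with array weights and 12 when restricted to genes of mean 4 or more, and 5 to 9 without 1 array. Pathway genes that fell (7) numbered 17 with array weights, 4 with the mean of probe sets, 3 with the floor, 4 with the replicate block, 1 in the averaged fit and 1 at 0.01, and 1 to 7 without 1 array. The ligand median (0.04) was 0.10 with array weights, 0.33 for genes of mean 4 or more and 0.83 for those of mean 6 or more, since dim genes leave, and 0.02 to 0.06 without 1 array. The receptor median (-0.66) was -0.17 with array weights and -0.84 to -0.32 without 1 array. The cause of the other shifts was not tested. The labels do not say whether arrays of the same replicate letter share anything beyond it. Deviations of same-letter arrays correlated at -0.38 (A), 0.255 (B) and -0.07 (C), and those of different-letter arrays at -0.342 to 0.366. These values cannot decide whether the letters pair samples, because deviations from a mean of 3 arrays depend on one another. Signals near or under 4 limit Sema3d, Sema4d, Sema5b, Crmp1, Mical2 and the low age of Sema4g, Nrp2 and Itga1.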
